A study of Mus musculus with 16 samples.

Results

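The noncoding RNAs that mouse macrophages carried in measurable amounts, whether untreated, given heme-albumin or given lipopolysaccharide (LPS), are described here. On the arrays used, 1216 of 39429 non-control probes were designed to RefSeq transcripts whose accession starts with NR_, the prefix of noncoding records. Of these, 287 were well above background in both colours on all 16 arrays, and they are the members. The members were chosen by brightness alone, so their detection is a description, whereas the differences between groups were not used to choose them. The dimmest member on any array had a red processed signal of 17.6 units. The 16 NR_ probes that missed the rule by a single flag of 32 came down to 14.3 units, and 475 NR_ probes had no flag at all.

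The cells were macrophages derived from murine stem cells, in 4 groups of 4 biological replicates lettered a to d. The treated groups were incubated for 8 h with LPS at 10 ng/mL, with heme-albumin at 200 µM, or with heme-albumin at 50 µM, and the control group had no treatment and an incubation time of 0 h. LPS is a component of bacterial outer membranes that activates macrophages through Toll-like receptor 4, and heme, the oxygen-binding iron group of hemoglobin, was given to the cells bound to albumin. The series asks whether heme triggers inflammation. On each 2-colour array the sample was labelled red (Cy5) and untreated reference RNA green (Cy3), so the control arrays carried untreated RNA in both colours. Cells incubated for 8 h without treatment, or with albumin alone, are not analysed here, so treatment and incubation time cannot be told apart in any comparison with the control.

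All values below are log2 ratios of red over green, and a change is the difference between 2 group means of that ratio, with its standard error (SE) from limma's moderated test. A member is called when its p-value, adjusted by the Benjamini-Hochberg method over all 21447 probes tested, is under 0.05 and its change is at least 1 on the log2 scale, which is 2-fold. In red, 49.9 to 59.4 percent of probes were above background, none was saturated on any array, and the precision is limited by the 4 arrays in each group. Of 6 macrophage markers on the array, Csf1r, Adgre1, Itgam, Lyz2, Fcgr1 and Mertk, all 6 were above background on every array. Of 4 embryonic stem cell markers, Nanog was above background on every array, whereas Pou5f1, Sox2 and Zfp42 were on none. Of 3 neutrophil markers Elane and Camp were also above background on all 16 arrays and the third on some. Pecam1 and Kdr of 4 endothelial markers, Cd3e of 4 lymphocyte markers and Itgax of 4 dendritic cell markers were so on all 16. No fibroblast or mast cell marker was above background on all 16, but 3 of 4 fibroblast and 1 of 4 mast cell markers were on some. So were 2 further endothelial, 1 further lymphocyte and 3 further dendritic cell markers. Their part in the results was not tested. Since these are bulk RNA samples, fewer cells of a type and less RNA per cell cannot be told apart.

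Noncoding RNAs work without being translated. Some hold small RNAs that are cut out of the transcript. Among these are small nucleolar RNAs (snoRNAs), which guide chemical changes on ribosomal RNA. MicroRNAs are another kind, and they pair through a short seed with messenger RNAs and reduce their output. Other noncoding RNAs are scaffolds: Neat1 builds the nuclear bodies called paraspeckles, Malat1 gathers in nuclear speckles, and Norad binds Pumilio proteins. A further class, pseudogenes, are copies of coding genes that no longer make the protein.

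The 287 members matched 218 gene symbols through 252 probes, and 35 probes of 27 accessions have no name here. By current name and type, 125 were other long noncoding RNAs, 89 pseudogenes, 12 antisense or opposite strand RNAs, 9 snoRNA host genes by name, 6 structured small RNAs and 4 microRNA hosts. Another 7 belong to genes that the reference now lists as protein coding, so the NR_ prefix of the array design does not mean noncoding for every member.

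Many more members were called after LPS than at either dose of heme-albumin, as was so for all probes tested. After LPS, 68 of the 287 members were called, 30 higher and 38 lower, which is 23.7 percent beside 28 percent of all probes tested and 25.3 percent of the 17660 probes above background in both colours on all arrays. The members' share thus lay near the background of these arrays. At 200 µM heme-albumin 2 members were called, both higher, beside 2.48 percent of all probes tested and 1.99 percent of those above background on all arrays. At 50 µM no member was called by limma's test, beside 0.312 percent of all probes and 0.249 percent of those above background on all arrays; 30 had an unadjusted p under 0.05 and 6 an adjusted one, beside 2673 and 598 of all 21447 probes, and variances without moderation also called 0. The members' changes ran from −2.84 to 3.3 after LPS, from −0.69 to 1.19 at 200 µM and from −0.45 to 0.82 at 50 µM. The median change of the members was −0.13 after LPS, 0.01 at 200 µM and −0.01 at 50 µM, against −0.06, −0.02 and −0.01 over all probes tested. With normexp background correction the split after LPS was 27 higher and 21 lower, beside 2277 and 1782 of all probes tested. Without background subtraction it was 27 higher and 22 lower, beside 2354 and 1822. With the main processing all probes tested split into 2863 higher and 3145 lower, so they turned in the same way as the members.

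In all 68 members called after LPS the LPS and control ratios did not overlap, with 4 arrays on each side except in I730030J21Rik and Gm6994, which had 3 LPS arrays. Regardless of call, 207 members did not overlap, and 69.2 percent of all probes tested did not either. Against LPS, 76 members were called at 200 µM (46 higher, 30 lower, beside 28.2 percent of all probes) and 71 at 50 µM (37 higher, 34 lower, beside 28 percent). With normexp correction the splits were 24 higher and 24 lower at 200 µM and 21 higher and 27 lower at 50 µM. All probes tested then split into 1755 higher and 2260 lower at 200 µM, and 1750 and 2274 at 50 µM. With the main processing they split into 3237 higher and 2815 lower at 200 µM, and 3202 and 2809 at 50 µM. These comparisons share their arrays with those against the control, so they are not separate evidence. The 142 NR_ probes that were tested but missed the detection rule had 63 calls after LPS, 25 higher and 38 lower, which is 44.4 percent. Those probes entered the test by being above background in at least 1 group, which by itself favours probes that differ between groups. The members' rule, which asks for signal on every array, favours the reverse.

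The RNA with accession NR_002860, which has no name here, rose most after LPS, and it did so on all 3 of its probes. Probe 3 had log2 ratios of 2.74, 2.73, 2.57 and 2.66 on the LPS arrays, against −0.351, −0.892, −0.626 and −0.616 on the control arrays, a change of 3.3 (SE 0.0973, adjusted p = 4.6e-13). Probe 2 stood at 2.31, 2.22, 2.02 and 2.07 after LPS, against −0.416, −1.04, −0.959 and −0.967 in control cells, a change of 3 (SE 0.131). Probe 1 changed by 2.39 (SE 0.0857). On all 3 probes every LPS array was above every control array. The control arrays themselves sat below 0 although both of their colours carried untreated RNA.

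Among RNAs with a symbol, 4933412E12Rik, Fbxl12os, I730030J21Rik and A630012P03Rik rose most. 4933412E12Rik, a long noncoding RNA of chromosome 10 with no role given here, had ratios of 2.14, 2.07, 2.49 and 2.39 after LPS, against −0.0872, 0.0641, −0.08 and −0.0485 in control cells (change 2.31, SE 0.0901, adjusted p = 8.5e-12). I730030J21Rik, a long noncoding RNA of chromosome 15, stood at 2.26, 2.46 and 2.75 on 3 LPS arrays, against 0.42, 0.39, 0.361 and 0.345 on the control arrays. Its spot on LPS replicate a was an outlier and was left out, and the change was 2.11 (SE 0.0846). In both RNAs the 2 groups were far apart and each was tight. AI646519 on chromosome 2 rose by 1.9 (SE 0.0453) and 1700110I01Rik on chromosome 14 by 1.84 (SE 0.0741), again without overlap.

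Fbxl12os and A630012P03Rik rose on every array but to unequal extents. Fbxl12os, an opposite strand RNA by name that the reference types as a transcribed pseudogene, had 0.766 and 1.47 on LPS replicates a and b and 2.74 and 2.89 on c and d, against −0.305, −0.404, −0.179 and −0.197 in control cells. A630012P03Rik on the X chromosome had 1.15 and 1.24 on a and b and 2.87 and 2.81 on c and d, against −0.107, −0.0647, 0.0456 and −0.21 in control cells. The changes over all arrays were 2.24 (SE 0.34) for Fbxl12os and 2.1 (SE 0.333) for A630012P03Rik. Replicates a and b were scanned on 1 day and c and d on another, and each letter also has a slide of its own. Within the first scan day the changes were 1.47 for Fbxl12os and 1.28 for A630012P03Rik, and within the second 3 and 2.92, so the direction held on both days and the size did not. The part of the scan day in these sizes was not tested apart from the replicates scanned on it.

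Tug1, a long noncoding RNA first described as raised by taurine in the retina, rose on 2 of its 3 probes. Probe 2 had 1.73, 1.98, 1.96 and 2.21 after LPS, against −0.134, 0.288, −0.554 and 0.00959 in control cells (change 2.07, SE 0.15, adjusted p = 9.1e-09). Probe 3 changed by 1.27 (SE 0.0846, adjusted p = 3.5e-09) and by 0.97, short of 2-fold, when no background was subtracted. Probe 1 changed by 0.24 (SE 0.076) and its groups overlapped. The 3 probes thus did not give 1 answer for Tug1.

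Several well known noncoding RNAs gave no call after LPS. Nron, a scaffold that holds the transcription factor NFAT in the cytoplasm, had 0.428, 0.499, 0.517 and 1.17 after LPS, against 0.0479, −0.0489, −0.0342 and −0.224 in control cells, a change of 0.72 (SE 0.144) that stayed under 2-fold although the groups did not overlap. The 4 probes of Norad changed by 0.67, 0.55, 0.45 and −0.16, none of them 2-fold. Malat1 differed by −0.01 (SE 0.128), with −0.209, −0.24, 0.212 and 0.032 after LPS, against −0.07, 0.0333, −0.0874 and −0.0357 in control cells. Its groups overlapped, as did those of Rmrp, the RNA of the enzyme RNase MRP, at −0.01 (SE 0.204), and of Airn, the imprinted RNA that silences Igf2r, at −0.13 (SE 0.117). The sign of 4 of these differences turned between the scan days. Airn stood at 0.11 on the first day alone and −0.37 (adjusted p = 0.0056) on the second, probe 4 of Norad at 0.05 and −0.37 (adjusted p = 0.00054), Malat1 at −0.21 and 0.18, and Rmrp at −0.11 and 0.09.

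Lockd, a long noncoding RNA transcribed just downstream of the cell cycle inhibitor gene Cdkn1b, fell most. Its ratios were −2.77, −2.82, −2.33 and −2.35 after LPS, against 0.28, 0.192, 0.372 and 0.231 in control cells (change −2.84, SE 0.0997, adjusted p = 2.8e-12). Cdkn1b itself differed by −0.14 (SE 0.0677, adjusted p = 0.075), so the noncoding RNA and its coding neighbour stood far apart. Neat1, the scaffold of paraspeckles, had −1.78, −1.11, −1.34 and −1.99 after LPS, against −0.084, 0.0218, −0.0244 and −0.0676 in control cells, and fell by 1.52 (SE 0.184, adjusted p = 2.7e-06). Of 8 paraspeckle protein genes measured, none was called in either direction after LPS, beside 28 percent of all probes, and their median change was −0.26, beside −0.06 over all probes; Nono, one of the core proteins, differed by 0.73 (SE 0.125), short of 2-fold.

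Peg13, an imprinted noncoding RNA that lies within Trappc9, fell to −2.1, −1.92, −2.21 and −2.36 after LPS, against −0.0739, −0.0756, −0.0794 and −0.0504 in control cells (change −2.08, SE 0.11, adjusted p = 2.6e-10). Trappc9 differed by −0.38 (SE 0.0501), which was not 2-fold. Pvt1, the long noncoding neighbour of the growth gene Myc, fell by 1.51 (SE 0.0705) on probe 1, with −1.43, −1.29, −1.53 and −1.61 after LPS, against 0.0675, 0.0291, 0.104 and −0.00965 in control cells. Its probe 2 differed by −0.71 (SE 0.0771), in the same direction and without overlap but short of 2-fold, and Myc differed by 0.74 (SE 0.32).

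The other large decreases were in RNAs known only by clone names. 1600010M07Rik on chromosome 7 had −2, −1.91, −2.1 and −2.07 after LPS, against 0.0655, 5.13e-05, 0.248 and 0.203 in control cells, and fell by 2.15 (SE 0.0598). 3300005D01Rik on chromosome 17 fell by 2.17 (SE 0.108), 2610035D17Rik on chromosome 11 by 2.15 (SE 0.135) and the transcribed pseudogene 2700099C18Rik by 2.3 (SE 0.191). All 4 were lower on every LPS array than on any control array. 2610507I01Rik on chromosome 11 had −1.65 and −1.64 on LPS replicates a and b and −3.07 and −3.1 on c and d, against −0.162, −0.174, −0.173 and −0.127 in control cells. The change of 2610507I01Rik was −2.21 over all arrays (SE 0.275), −1.48 within the first scan day and −2.94 within the second.

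Among genes that carry snoRNAs within their span, several fell after LPS and none was called higher. In the RefSeq annotation of assembly GRCm38.p6, 12 members had a snoRNA gene within their span, and 5 of the 12 were called lower after LPS, beside 14.7 percent of all probes tested. Their median change was −0.92, beside −0.06 over all probes. 2410006H16Rik, which holds Snord49a, Snord49b and Snord65, had −1.95, −1.89, −1.94 and −2.1 after LPS, against 0.0676, −0.0326, 0.0967 and 0.0494 in control cells (change −2.01, SE 0.0833, adjusted p = 1.6e-11). Snhg12, which holds 4 snoRNA genes, had −1.6, −1.52, −2.1 and −1.9 after LPS, against −0.0285, −0.00656, 0.0609 and 0.0565 in control cells, and fell by 1.8 (SE 0.0978). In both, every LPS array was below every control array.

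Snhg5 fell by 1.37 (SE 0.13), Dancr by 1.28 (SE 0.117) and Snhg1, which holds 8 snoRNA genes, by 1.13 (SE 0.0782). These 3 calls were lost under both background alternatives, which also began from the median signals and redid the dye correction. With normexp correction the changes of Snhg5, Dancr and Snhg1 were −0.61, −0.53 and −0.83, and without background subtraction −0.7, −0.6 and −0.85, all in the same direction but under 2-fold. Snhg1 also stood at −0.93 on the first scan day alone and at −0.92 without the arrays that the scanner software marked for evaluation. Snhg3 differed by −0.62 (SE 0.0937) and Snhg6 by −0.4 (SE 0.0665), with groups that did not overlap. 9330159M07Rik, at 0.76, and Snhg17, at 0.47, were the 2 of the 12 on the positive side, neither of them 2-fold.

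At both doses of heme-albumin the same 12 genes stayed close to the control, from −0.15 to 0.37 at 200 µM and from −0.13 to 0.16 at 50 µM. None was called, beside 2.48 and 0.312 percent of all probes, so a count of 0 is near the background. The core proteins that package snoRNAs were also measured: of 12 genes, 2 were lower after LPS and none higher. Of all probes tested 14.7 percent were lower and 13.3 percent higher. The median change of these 12 genes was −0.57, beside −0.06 over all probes. Dkc1, the pseudouridine synthase of H/ACA snoRNAs, fell by 1.98 (SE 0.395) and Shq1, its assembly factor, by 1.06 (SE 0.191). None of the 12 was called at either dose of heme-albumin.

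Of 6 members with a microRNA gene within their span, 2 were called higher after LPS, Dleu2 and Mir22hg, and none lower, beside 28 percent of all probes called in either direction. Of the mature microRNAs that RefSeq (GRCm38.p6) places within Dleu2, Mir22hg and Mir17hg, 5 are shown as examples. The other arms of miR-15a, miR-16-1 and miR-92a-1 are left out. The annotated span of Mir17hg holds only 1 microRNA gene, Mir92-1, so other microRNAs of its cluster are not shown. The seed, bases 2 to 8, is in capitals.
mmu-miR-15a-5p: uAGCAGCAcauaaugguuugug
mmu-miR-16-5p: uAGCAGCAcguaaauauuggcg
mmu-miR-22-3p: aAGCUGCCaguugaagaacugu
mmu-miR-22-5p: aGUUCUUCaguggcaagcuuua
mmu-miR-92a-3p: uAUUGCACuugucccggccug
The first 2, both of Dleu2, share 1 seed, and the other 3 each have their own. The arrays measured the host transcripts and not these mature microRNAs.

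Dleu2, the host of miR-15a and miR-16, stood at 1.63, 1.6, 1.15 and 1.07 after LPS, against −0.191, −0.247, −0.201 and −0.0315 in control cells, and rose by 1.53 (SE 0.132, adjusted p = 6.4e-08). Mir22hg, the host of miR-22, had 1.2, 1.22, 1.67 and 1.16 after LPS, against −0.219, 0.112, 0.00163 and 0.0538 in control cells, and rose by 1.32 (SE 0.132, adjusted p = 3.2e-07). In both, every LPS array was above every control array. Mir17hg, the host of the miR-17 to miR-92 cluster, had −0.477, −0.0136, −0.608 and −1.11 after LPS, against 0.154, 0.561, 0.296 and 0.319 in control cells, a change of −0.89 (SE 0.18, adjusted p = 0.00041) that was short of 2-fold. It was −0.6 (adjusted p = 0.039) on the first scan day alone and −1.17 (adjusted p = 0.00073) on the second.

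At 200 µM heme-albumin Mir22hg differed by 0.54 (SE 0.132, adjusted p = 0.01), Dleu2 by 0.41 (SE 0.132, adjusted p = 0.043) and Mir17hg by 0.47 (SE 0.18, adjusted p = 0.087), none of them 2-fold. On the first scan day alone Dleu2 differed by 0.66 (adjusted p = 0.0013) and on the second by 0.16 (adjusted p = 0.21). Within a single scan day the adjusted p of Mir22hg was 0.14 on the first and 0.062 on the second, and that of Mir17hg 0.42 and 0.036. Dubr, D7Ertd143e and Snhg10, which also hold a microRNA gene, stayed within 2-fold in every comparison with the control. Of 10 genes that make or load microRNAs, 3 were lower after LPS and none higher. Of all probes tested 14.7 percent were lower and 13.3 percent higher, and the share called either way was near their 28 percent. Dicer1, which cuts the hairpin, fell by 1.71 (SE 0.101), Prkra, its partner, by 1.37 (SE 0.07), and Dgcr8, the partner of Drosha, by 1.03 (SE 0.0769). Their list had a median of −0.07 beside −0.06 over all probes. None of the 10 was called at either dose of heme-albumin, which is near the 2.48 and 0.312 percent of all probes.

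Proteins that act on these RNAs in decay, trimming or small ribonucleoproteins were also measured, and each count below stands beside 13.3 percent of all probes called higher after LPS and 14.7 percent called lower. Of 14 nonsense-mediated decay genes, which act on many spliced noncoding RNAs, 2 were higher and 1 lower. Magohb, a part of the exon junction complex, rose by 2.2 (SE 0.171), and Smg6, the endonuclease of the pathway, fell by 1.41 (SE 0.119). Of 12 RNA exosome genes 2 were higher and 3 lower, with Exosc9 at 1.42 (SE 0.0635) and Exosc6 at −2.29 (SE 0.199). Of 11 genes for proteins of telomerase, RNase P and RNase MRP, 3 were lower and none higher, with Rpp40 at −1.4 (SE 0.156) and Pop5 at −1.32 (SE 0.0657). No gene of these 3 lists was called at 200 µM or at 50 µM, beside 2.48 and 0.312 percent of all probes. Counts of 0 are thus near the background.

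5033406O09Rik, a long noncoding RNA of chromosome 12 with no role given here, rose at 200 µM heme-albumin and had a smaller difference, short of 2-fold, at 50 µM. Its ratios were −0.0175, −0.0338, 0.0882 and 0.0904 in control cells, 0.247, 0.564, 0.622 and 0.627 at 50 µM, and 0.984, 1.33, 1.33 and 1.17 at 200 µM. None of these 3 sets overlapped another. The change was 1.17 at 200 µM (SE 0.106, adjusted p = 2.2e-06) and 0.48 at 50 µM (SE 0.106, adjusted p = 0.022), and 200 µM was 0.69 above 50 µM (SE 0.106, adjusted p = 0.0011). After LPS it differed from the control by 0.22 (SE 0.106, adjusted p = 0.076), at 0.42 (adjusted p = 0.044) on the first scan day alone and 0.02 (adjusted p = 0.82) on the second. With normexp background correction the change at 200 µM was 0.66, and without the arrays marked for evaluation it was 1.36 with an adjusted p of 0.062, so both ended the call.

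NR_002860 was the other member called at 200 µM, on 1 of its 3 probes. Probe 2 had ratios of −0.416, −1.04, −0.959 and −0.967 in control cells, −0.0066, −0.211, 0.121 and 0.00366 at 50 µM, and 0.283, 0.13, 0.532 and 0.413 at 200 µM. Each set lay wholly above the one before it. The change at 200 µM was 1.19 (SE 0.131, adjusted p = 1.5e-05), and probes 3 and 1 changed by 0.95 (SE 0.0973) and 0.76 (SE 0.0857), short of 2-fold. On the first scan day alone probe 2 changed by 0.94 and on the second by 1.43, and without the marked arrays its adjusted p was 0.06. At 50 µM the changes were 0.82 on probe 2, 0.52 on probe 3 and 0.43 on probe 1, the first of them past 2-fold on the second scan day alone, at 1.03.

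Between the doses no member was called at 2-fold by limma's test, beside 0.639 percent of all probes tested; 47 members had an unadjusted p under 0.05, and 12 an adjusted one. All 12 were higher at 200 µM, but they are probes and some share an RNA, as probes 1 and 3 of NR_002860 do. Of all 21447 probes 3738 had such an unadjusted p and 1211 such an adjusted one, 677 of them higher and 534 lower. Pvt1 was among them on both probes, at 0.41 (SE 0.0705, adjusted p = 0.0025) on probe 1 and 0.44 (SE 0.0771, adjusted p = 0.0028) on probe 2. Probe 1 of Pvt1 had 0.338, 0.276, 0.469 and 0.371 at 200 µM, against −0.157, −0.0998, 0.0462 and 0.0146 at 50 µM. After LPS the same probe fell, as given above, and at 200 µM it stood 0.32 (SE 0.0705, adjusted p = 0.0057) above the control, short of 2-fold.

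Several members were measured by more than 1 probe, and the probes of a name did not always give the same call. Among 29 names with more than 1 member probe, 3 had every probe called after LPS, 22 had none called and 4 had called and uncalled probes. None had probes called in opposite directions. The median distance between the highest and the lowest change of a name was 0.21, and the widest were Tug1 at 1.83 and 9330133O14Rik at 1.15.

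Pseudogenes were set beside the coding gene of their root name, since a probe can also bind the RNA of a near-identical copy. For 14 pairs with both sides measured, 11 had the same sign after LPS. Hmgb1-rs17 fell by 1.69 and Hmgb1, a chromatin protein that also acts as an alarm signal, by 1.65 (SE 0.122). Pdxk-ps fell by 1.64, and Pdxk, which activates vitamin B6, fell by 3.28 (SE 0.247). Tyms-ps went the other way from its gene: it differed by −0.77, short of 2-fold, while Tyms, the thymidylate synthase, rose by 2.64 (SE 0.118). Across these 14 pairs Pearson's r was 0.54, and some pairs share a coding gene. These pairs are uncertain as measures of the pseudogene alone.

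Opposite strand RNAs were set beside the gene they are named after. In 11 pairs, 5 had the same sign after LPS and none was called on both sides, with r at 0.15. Both probes of Sp3os were set against the same value of Sp3, and both of those pairs had the same sign. Fbxl12os rose by 2.24, while Fbxl12 differed by 0.32 (SE 0.0573). Rab10os differed by 0.72, and Rab10, a small GTPase of vesicle transport, rose by 1.14 (SE 0.0515). Whether the labelled strand matches the strand of each probe was not checked here.

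The nearest protein-coding gene in the reference was measured for 117 member probes other than pseudogenes and unnamed members, with several probes of 1 RNA counted singly. The sign after LPS was the same in 61 of the 117, and across the pairs Pearson's r was 0.21 and Spearman's rho 0.15. Of 35 probes called after LPS, 7 had a called neighbour, 6 of them in the same direction, a share of called neighbours no higher than the 28 percent of all probes called. Gdap10, which overlaps Nampt, rose by 1.73, and Nampt, an enzyme of NAD synthesis, by 2.33 (SE 0.15). Gm11110, which overlaps Tnfsf9, rose by 1.21, and Tnfsf9, the ligand of the T cell receptor 4-1BB, by 3.52 (SE 0.342). Values of such overlapping pairs are uncertain as measures of the noncoding RNA alone.

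Snhg1 and Slc3a2 were the 1 pair called in opposite directions. Snhg1 fell by 1.13, while Slc3a2, the heavy chain of amino acid transporters that include the cystine importer, rose by 1.58 (SE 0.104, adjusted p = 3e-09). The ratios of Snhg1 were −0.984, −0.816, −1.14 and −1.17 after LPS, against 0.11, −0.0533, 0.158 and 0.191 in control cells. These pairs beyond the fixed rule, including Gdap10 and Gm11110, were chosen after their values were seen.

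Promoters of RNAs called in each direction after LPS are shown as examples picked by hand. Mir22hg, at 1.32, was not among the largest increases. Matches to 3 short motifs, the kappaB, antioxidant and interferon elements, were searched on both strands. They run from 250 bases before to 50 bases after the RefSeq start in GRCm38.p6, and motif matches are in capitals. Those of 4933412E12Rik (chr10:116950312-116950611 on the plus strand) and Mir22hg (chr11:75461289-75461588 on the plus strand) belong to RNAs higher after LPS. Those of 2410006H16Rik (chr11:62602627-62602926 on the plus strand) and Lockd (chr6:134928842-134929141 on the plus strand) belong to RNAs lower after LPS.
4933412E12Rik promoter: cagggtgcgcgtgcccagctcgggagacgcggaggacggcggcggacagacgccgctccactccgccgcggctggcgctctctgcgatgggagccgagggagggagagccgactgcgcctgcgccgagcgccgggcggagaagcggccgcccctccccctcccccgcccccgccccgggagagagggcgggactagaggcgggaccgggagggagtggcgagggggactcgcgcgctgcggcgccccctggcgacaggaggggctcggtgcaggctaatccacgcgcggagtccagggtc
Mir22hg promoter: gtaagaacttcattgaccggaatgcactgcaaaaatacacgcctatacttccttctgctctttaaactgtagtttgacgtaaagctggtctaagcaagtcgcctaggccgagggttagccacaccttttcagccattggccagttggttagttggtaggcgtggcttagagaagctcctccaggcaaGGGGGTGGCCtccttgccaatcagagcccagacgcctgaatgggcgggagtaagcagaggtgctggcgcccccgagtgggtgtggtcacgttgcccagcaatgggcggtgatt
2410006H16Rik promoter: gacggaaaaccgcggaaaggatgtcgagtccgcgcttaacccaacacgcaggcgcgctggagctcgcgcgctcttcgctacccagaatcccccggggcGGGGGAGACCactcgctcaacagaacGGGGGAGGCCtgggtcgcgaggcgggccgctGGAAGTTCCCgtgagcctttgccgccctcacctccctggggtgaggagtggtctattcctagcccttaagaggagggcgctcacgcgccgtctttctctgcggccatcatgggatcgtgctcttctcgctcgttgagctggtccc
Lockd promoter: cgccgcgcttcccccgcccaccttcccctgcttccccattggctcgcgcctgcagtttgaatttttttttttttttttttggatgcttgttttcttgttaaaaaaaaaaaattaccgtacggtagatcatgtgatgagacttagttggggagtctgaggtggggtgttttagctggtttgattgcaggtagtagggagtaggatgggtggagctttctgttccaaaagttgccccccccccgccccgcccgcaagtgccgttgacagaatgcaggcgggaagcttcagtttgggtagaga
The matches are all to the kappaB motif: 1 in Mir22hg and 3 in 2410006H16Rik, with none in the other promoters.

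Matches to the kappaB motif were common in members and in all genes. The promoter table held 118 of the 218 named genes, and 58.5 percent of these had a match, beside 53.5 percent of all 27025 genes with a promoter. Among members higher after LPS 8 of 14 genes had one, and among those lower 12 of 20. The antioxidant element was found in 16.9 percent of members and 14 percent of all genes, and the interferon element in 2.54 and 3.99 percent. The interferon element was in none of the 14 genes that rose and in 2 of the 20 that fell. The motifs can overlap one another, a match is only a run of letters, and no difference in these shares was tested.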

How the data were processed

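Two-colour Agilent 44K arrays of an expression design on mouse build mm9 were read. Each spot's deposited ratio is the log10 of its red over its green signal. Per the file headers, the authors' scanner software, Agilent Feature Extraction 10.7.3.1, had subtracted background and corrected the dyes by a linear and lowess step. The authors' deposited table of log10 values equals these columns (largest difference 0). The deposited processed, median and background signals are intensity values per colour, per the file headers, and served detection and the alternatives. Per the labels' protocols, RNA was copied with a T7 promoter primer. Per the labels, the authors put the log10 ratios into an analysis of variance without further normalisation and filtered at 2-fold.

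Log10 ratios were multiplied to the log2 scale, control and outlier spots were left out (188 to 690 outlier spots per array), and spots of a probe were averaged. A probe was tested if some group had it well above red background on each of its 4 arrays, which kept 21447. The fit used limma 3.58.1 (lmFit, eBayes) under R 4.3.3, with 1 mean for each group and 1 spread estimated from all 16 arrays, at a median of 14.1 degrees of freedom. In each of 6 comparisons the Benjamini-Hochberg adjustment ran over all probes tested. Of the members, 14 lacked a value on some array (32 values in all), and those arrays were dropped for that probe. The fit was tested on simulated data with known changes.

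Names come from RefSeq's gene table of GRCm38.p6, matched by accession. The design is on another build, so that table gave only names, contained genes and neighbours; 27234 of 39429 probes had a name. For coding genes the brightest probe tested stands. Named members are the 10 largest increases and 8 largest decreases called after LPS, all those called with heme-albumin, and members among 50 preset names, of which 18 were members. The members, names, pathway lists and motifs were chosen with earlier results of these data known. Sequences are RefSeq's.

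Arrays of the same replicate letter share a slide and, in the titles, a tag. Correlations of same-letter deviations were 0.102 to 0.153 between LPS and control, and from 0.126 to 0.471 in the others of the 6 comparisons. Different letters reached 0.108 between LPS and control, 0.219 between 200 µM and control (lowest same-letter value 0.181) and 0.148 between 200 µM and LPS (0.126). There, different letters exceeded the lowest same-letter value, and only 3 letters correlated best with their own. In the other comparisons every same-letter value was higher. The replicate block took the letters as pairs, but a shared letter cannot be told apart from a shared slide. Replicates a and b were scanned on 1 day and c and d on another. Each group kept 1 position on every slide, so position and group cannot be told apart. For probe 3 of Norad, as an example, the mean log2 red signal was 10.06 on the LPS arrays and 8.241 on the control arrays. Its ratio changed by only 0.67, so brightness differed by more than the ratio did. The cause of this was not tested. Marked for evaluation by the scanner software were replicates a and d of both the LPS and the 200 µM group, d of the 50 µM group, and a, c and d of the control. Alternatives covered the background step, centring, filters, red alone, blocks, scan days and each replicate left out. Normexp correction and no subtraction both began from the deposited median signals and redid the dye correction by loess. The background step therefore cannot be told apart from these other changes. Of the alternatives, 3 were chosen after seeing the data: centring on the probes tested, leaving out marked arrays, and 1 probe per name.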

Additional observations from a re-analysis of the deposited data

Results flagged for a closer look

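Among 163 sets of 4 replicates of the named members, 14 held an array that stood far from its other 3 (a gap over 0.829 of the whole range); chance gives about 1 in 20. After LPS these were Mir22hg on replicate c, at a log2 ratio of 1.67 against 1.16 to 1.22 on the others, Nron on replicate d (1.17 against 0.428 to 0.517), 2610035D17Rik on replicate a (−1.85 against −2.34 to −2.28) and Pvt1 probe 2 on replicate b (−0.628 against −0.794 to −0.769). At 200 µM heme-albumin, replicate a was low for Tug1 probe 2 (0.0242 against 0.295 to 0.307), Tug1 probe 3 (0.354 against 0.461 to 0.469) and Dancr (0.0785 against 0.548 to 0.593). Replicate d at 200 µM was high for A630012P03Rik (0.0731 against −0.603 to −0.49). At 50 µM, replicate a was low for 5033406O09Rik (0.247 against 0.564 to 0.627), Mir17hg (0.148 against 0.476 to 0.526) and 3300005D01Rik (−0.108 against 0.0606 to 0.0921), and replicate c was low for Norad probe 2 (−0.457 against −0.191 to −0.152). Among control arrays, replicate a was high for NR_002860 probe 2 (−0.416 against −1.04 to −0.959) and replicate c low for Airn (−0.132 against −0.00815 to 0.00365). Of these 14 values 8 lay on arrays marked for evaluation by the scanner software (replicates a and d after LPS, a and d at 200 µM, and a and c of the control), and 8 of all 16 arrays were so marked.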

How the results depend on the processing

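With the replicate block the number of members called stayed at 68 after LPS, 2 at 200 µM and 0 at 50 µM, and it changed no other call of a named member; scan day as a block also left 68. Leaving out each replicate in turn gave 64 to 76 members called after LPS, 2 to 3 at 200 µM and 0 at 50 µM, 0 between the doses, 71 to 81 at 200 µM against LPS and 66 to 75 at 50 µM against LPS. At 200 µM against control, 1 member was called with normexp correction (NR_002860 probe 2), 1 on the first scan day alone (5033406O09Rik) and 1 without the marked arrays. That last one was NR_002860 probe 3, at 1.19 (adjusted p = 0.041), which is neither of the 2 called with all arrays. At 50 µM against control, 1 was called on the second scan day alone. At 200 µM against LPS, 48 were called with normexp correction (24 higher, 24 lower) and 49 without background subtraction (26 higher, 23 lower), against 76 (46 higher, 30 lower). All probes tested there had 1755 higher and 2260 lower with normexp, 1901 and 2268 without subtraction, and 3237 and 2815 in the main fit. At 50 µM against LPS, 48 were called with normexp correction (21 higher, 27 lower) and 49 without background subtraction (22 higher, 27 lower), against 71 (37 higher, 34 lower). All probes tested there had 1750 higher and 2274 lower with normexp, 1866 and 2294 without subtraction, and 3202 and 2809 in the main fit. Without a minimum fold the counts were 233 after LPS, 45 at 200 µM, 6 at 50 µM, 12 between the doses, 234 at 200 µM against LPS and 235 at 50 µM against LPS, since the adjusted p alone then decides. In the same order they stand beside 16333, 3986, 598, 1211, 16491 and 16404 of all 21447 probes tested. Apart from that last setting the cause of these moves was not tested. Of the 68 members called after LPS, 46 kept the call with normexp correction, 47 without background subtraction, 65 with red alone, 56 on the first scan day, 65 on the second and 62 without the marked arrays; none was called in the opposite direction. In all 18 settings that kept every probe, 21 higher and 20 lower calls held. Centring on the median of all probes changed nothing, because that median was 0 on every array. Keeping 1 probe per gene tested fewer probes. Signal over background limits the dimmest members, whose lowest red signal was 17.6 units. Without replicate a, the third call at 200 µM was NR_002860 probe 3, at a change of 1.01. Leaving out the marked arrays keeps only replicate b of the control, which is then assumed to vary like the arrays of the other groups.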
